A study of Mus musculus with 4 samples.

Results

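Transcripts of the testis interstitium were compared between mice lacking H3t, a histone H3 variant of the testis, and wild-type mice, in libraries made only from the ground irradiated around Leydig cells. Counts came from photo-isolation chemistry, where primers carry caged ends and only cDNA uncaged by ultraviolet light is amplified. The tissue was a 10 µm testis section. The comparison held 3 H3t-knockout and 3 wild-type Leydig-targeted libraries, 6 of the 12 libraries of the series. The other 6 were entire-section libraries of the same 2 genotypes, 3 of each. No treatment other than the irradiation was labelled. The word young stands in the wild-type titles and no age in the knockout titles, so age and genotype cannot be told apart. No source used here gives the construct or strain of the deletion. Whether the libraries of 1 group come from different animals is not labelled, and p-values thus cover only the variation among libraries, which may be technical. Each group was also 1 library pool, and pool and genotype cannot be told apart. Genes were kept where their counts summed to at least 10 over the 6 libraries, which left 4555 of the 28595 genes in the table.

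Leydig cells lie between the seminiferous tubules and make testosterone. Star brings cholesterol into mitochondria, Cyp11a1 cuts its side chain to give pregnenolone, and 3-beta-hydroxysteroid dehydrogenases, Cyp17a1 and Hsd17b3 complete the path to testosterone. Luteinising hormone drives this path through cAMP, and the nuclear receptor Nr5a1 keeps the steroidogenic genes on. The germ cells inside the tubules pass from spermatogonia through meiotic spermatocytes to round and elongating spermatids, where histones give way to transition proteins and then protamines. The series design asks how Leydig cells change where spermatogenesis is disrupted, and its title speaks of stress, proliferation and testosterone synthesis.

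The libraries were shallow, and the 2 genotypes were not equally deep. Totals were 53003, 39688 and 15208 counts in knockout replicates 1, 2 and 3 and 54882, 26853 and 5947 in wild-type replicates 1, 2 and 3, so 1 count was worth 168 CPM (counts scaled to a library total of 1e6) in wild-type replicate 3. The genes kept held 76.2% to 84.5% of each library's counts. The targeted gene, H3f4 (ENSMUSG00000080152, chromosome 11, 58961812 to 58962222 in GRCm38, plus strand, annotated as an unprocessed pseudogene), had 0 counts in all 6 libraries. It was not tested and could not check the labels. The labelled cell type was present in all 6 libraries, where the Leydig marker Cyp17a1 gave between 26 and 1103 counts. Spermatocyte and spermatid transcripts were also present in the wild-type libraries and nearly absent from the knockout ones, while the spermatogonia list overlapped between the genotypes. In bulk libraries such as these, fewer cells of a type and less RNA per cell cannot be told apart.

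Genes called higher in knockout libraries included steroidogenic, lipid and detoxifying genes, and those called lower included many transcripts of meiotic and later germ cells. edgeR's quasi-likelihood test with Benjamini-Hochberg adjustment called 197 genes higher (4.32% of the 4555 tested) and 443 lower (9.73%) at an adjusted p under 0.05, and 1256 genes had an unadjusted p under 0.05. The biological coefficient of variation was 0.624 and the median standard error of a log2 fold change, derived from the test statistic, was 1.25, so only large differences could be called. The libraries of the 2 genotypes did not overlap in CPM for 168 of the 197 higher and 255 of the 443 lower genes. Among all 4555 genes tested, every knockout library was above every wild-type library for 725 genes and below for 505. A lack of overlap was thus also found in many genes that were not called. No knockout library held a count for 347 of the lower genes, and no wild-type library for 60 of the higher genes. Among all 4555 genes tested these numbers were 457 and 112. A gene without counts in 1 genotype was kept only through its counts in the other, so such zeros partly follow from the filter. Protein-coding genes made up 98.0% of the higher, 88.7% of the lower and 94.9% of all tested genes. Whole libraries differed too, with a mean of 94.4% of counts in protein-coding genes in knockout and 89.1% in wild type. Pseudogenes took 2.23% and 4.08% and ribosomal protein genes 1.83% and 1.22%, and the genotypes did not overlap in any of these shares. Wild-type libraries held 1964, 1031 and 286 pseudogene counts. A large part of these came from the gene models Gm29216 and Gm13341, whose counts are given under other observations. Those models held a much smaller part in knockout, so the pseudogene gap is in good part theirs. The cause of these differences was not tested. Genes on the X chromosome were 16 of the higher genes (8.12%), 5 of the lower (1.13%) and 2.66% of all tested.

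The balance between higher and lower calls moved with the scaling. Higher genes were 30.8% of calls with trimmed mean of M values (TMM) scaling of the genes kept, 16.1% with the same factors computed on all counts (123 higher and 640 lower), 18.6% with relative log expression factors (148 and 648) and 25.6% with library size alone (226 and 658). When libraries were scaled to their own steroidogenesis and Leydig identity counts, 2 genes were higher and 1196 lower. The median log2 fold change of all tested genes was 0.28, and it went to -0.15, -0.12, -0.01 and -1.57 in these 4 scalings. Folds below are therefore to be read against that median. On the Leydig-scaled values the 2 genes still higher were Kit and Atrx, and 443 of 443 lower genes were still called lower. As this scaling moved the folds of all genes down, that the lower calls stayed was nearly built in and is no sign of stability. Counts of calls also rested on single libraries. Without knockout replicate 1 there were 27 higher and 92 lower calls, without knockout replicate 2 there were 28 and 161, without knockout replicate 3 there were 250 and 318, without wild-type replicate 1 there were 38 and 128, without wild-type replicate 2 there were 61 and 325, and without wild-type replicate 3 there were 141 and 687.

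Shares of counts give the makeup of the libraries without any scaling between them. The steroidogenesis and Leydig identity lists together took 8.55, 9.32 and 10.5% of counts in the knockout libraries and 1.95, 3.89 and 3.97% in wild type, a mean of 9.44% ± 0.959 against 3.27% ± 1.15 (SD, n = 3 each). All 3 knockout libraries were above all 3 wild-type libraries. The spermatocyte, round spermatid and elongating spermatid lists together took 0.0792, 0.0806 and 0.0460% of counts in the knockout libraries and 5.40, 3.94 and 2.98% in wild type, a mean of 0.0686% ± 0.0196 against 4.11% ± 1.22 (SD, n = 3 each). Every knockout library was below every wild-type library. Wild-type replicate 3, the shallowest library, also had the largest share of mitochondrially encoded transcripts, at 8.74%, where the other 5 libraries ran from 2.08% to 4.13%.

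**Figure D1:**
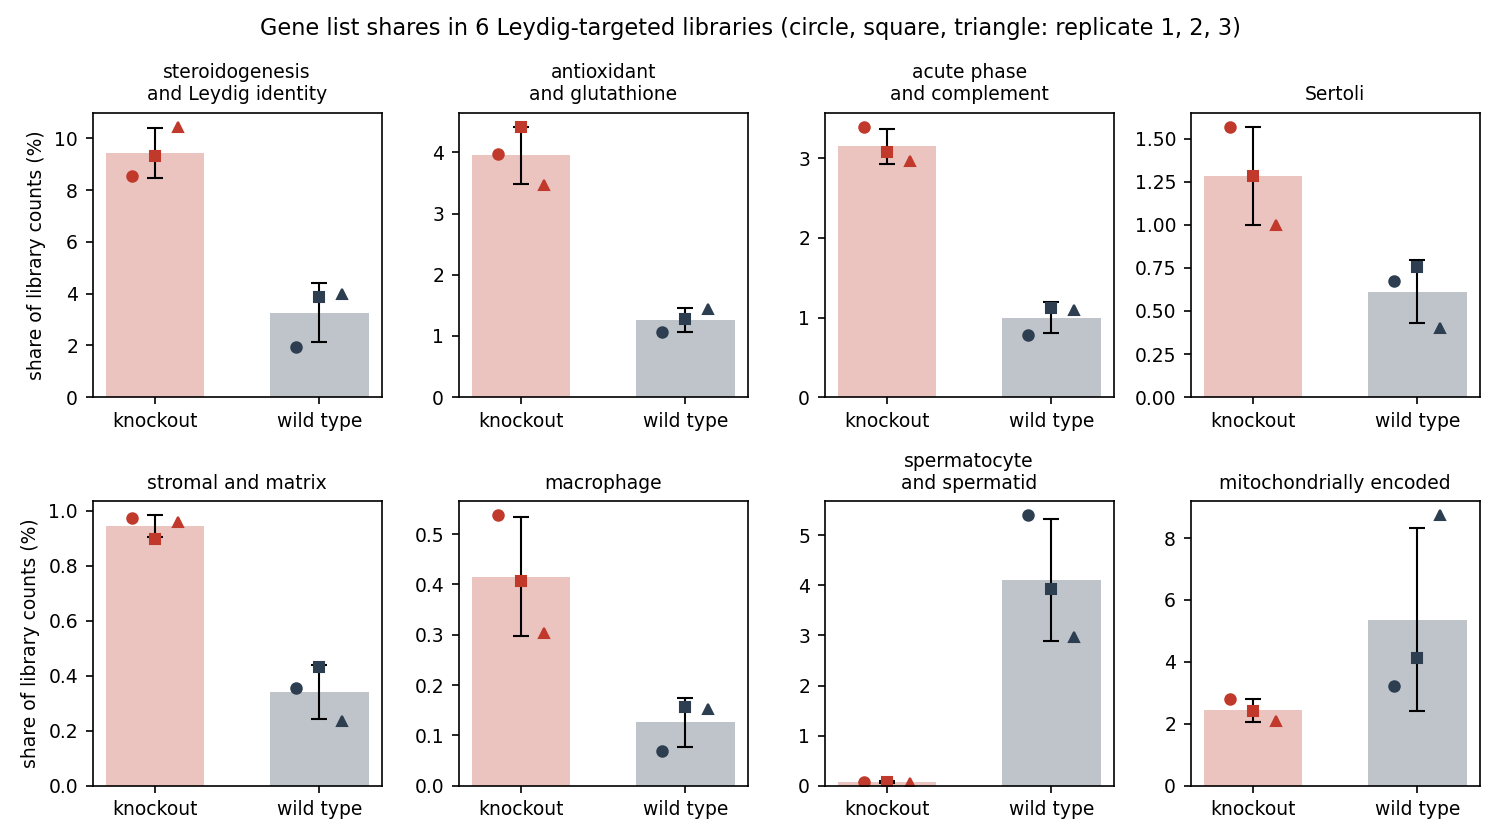
Share of each library's counts in 8 gene lists. Each panel has knockout libraries on the left and wild-type libraries on the right, with the share in percent on its own axis starting at 0. Bars are means, error bars are SD over 3 libraries, and the circle, square and triangle are replicates 1, 2 and 3. Knockout libraries lie above wild-type libraries in the first 6 panels and below them in the panels of spermatocyte and spermatid and of mitochondrially encoded genes.

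Of 17 steroidogenesis genes tested, 7 rose, none fell and 10 did not pass the test, with a median log2 fold change of 1.81 beside 0.28 over all genes. That is 41.2% called higher, beside 4.32% of all genes tested. Calls in the lists that follow are also to be read beside 4.32% higher and 9.73% lower among all genes. The genes that rose were Hsd3b1, Cyb5a, Hsd3b6, Cyp17a1, Hsd17b12, Cyb5b and Hsd17b7. Hsd3b1, a 3-beta-hydroxysteroid dehydrogenase (ENSMUSG00000027871, GRCm38 chromosome 3, 98852194 to 98859794, minus strand), had 359, 371 and 160 counts in the knockout libraries and 95, 56 and 10 in wild type, or 6773, 9348 and 10521 CPM in knockouts and 1731, 2085 and 1682 CPM in wild type. Every knockout library was above every wild-type library, and the log2 fold change was 2.41 ± 0.50 (SE; adjusted p = 2.29e-04). Hsd3b6, the paralog that takes over in adult Leydig cells, had 222, 97 and 33 counts in the knockout libraries and 28, 19 and 4 in wild type, with a log2 fold change of 2.49 ± 0.58 (SE; adjusted p = 0.00123). Reads of these near-identical paralogs may have been shared between them by the counting. Cyp17a1, whose hydroxylase and lyase activities lead to androgens (ENSMUSG00000003555, GRCm38 chromosome 19, 46667165 to 46673172, minus strand), was among the most abundant transcripts, with 1103, 1029 and 264 counts in the knockout libraries and 299, 286 and 26 in wild type, or 20810.1, 25927 and 17359 CPM in knockouts and 5448, 10651 and 4372 CPM in wild type. Its lowest knockout library was above its highest wild-type library, and the log2 fold change was 1.81 ± 0.44 (SE; adjusted p = 0.00236). Cyb5a, the cytochrome that favours the lyase step of Cyp17a1, had 23, 23 and 10 counts in the knockout libraries and 0, 1 and 0 in wild type and was 50.3-fold higher (8.66 to 2019.9 by counting error; adjusted p = 0.00105).

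The entry and the last step of testosterone synthesis did not pass the test. Star had 46, 43 and 16 counts in the knockout libraries and 26, 15 and 1 in wild type, or 868, 1083 and 1052 CPM in knockouts and 474, 559 and 168 CPM in wild type, and although the groups did not overlap its log2 fold change was 1.27 ± 0.66 (SE; adjusted p = 0.188). Cyp11a1, the side chain cleavage enzyme, was barely counted, with 5, 3 and 3 counts in the knockout libraries and 0, 5 and 4 in wild type. Its groups overlapped, with a log2 fold change of -0.41 ± 1.13 (SE; adjusted p = 0.861). Hsd17b3, which makes testosterone from androstenedione, had 27, 24 and 12 counts in the knockout libraries and 5, 4 and 3 in wild type and a log2 fold change of 2.01 ± 0.81 (SE; adjusted p = 0.0736), with wild-type replicate 3 at 3 counts just under the lowest knockout library in CPM. Hsd3b6 lost its call without knockout replicate 1 (adjusted p = 0.110). Cyp17a1 lost its call without knockout replicate 2 (adjusted p = 0.0673), with filterByExpr (0.0810) or with no filter (0.0807). Cyp17a1 was at 1.04 on the log2 scale without wild-type replicate 3. Cyb5a lost its call without wild-type replicate 1 (adjusted p = 0.0535). The list kept between 3 and 7 higher genes when 1 library was left out, with 3 in the fits without knockout replicate 1, knockout replicate 2 or wild-type replicate 1. Scaled to the Leydig counts themselves, its median was 0.03, a value near 0 that is built in because the list is part of that scale.

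**Figure D2:**
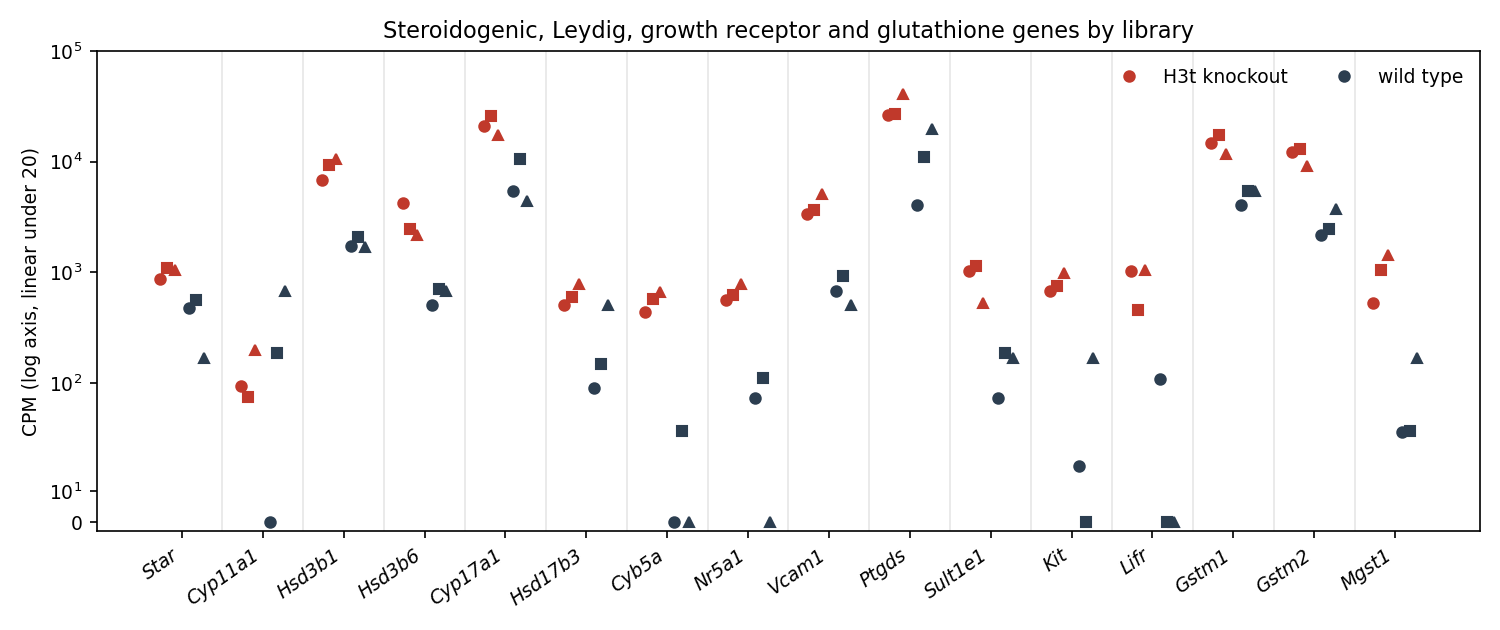
CPM of 16 genes in each of the 6 Leydig-targeted libraries, on a log axis that is linear under 20 CPM. Red symbols are knockout and dark symbols wild-type libraries, and the circle, square and triangle are replicates 1, 2 and 3. The groups are separate for each gene drawn except Cyp11a1, and wild-type symbols at 0 are libraries with no count.

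The Leydig identity list, which holds receptors, regulators and secreted products typical of these cells, had 6 of 13 tested members higher and none lower, with a median log2 fold change of 1.81. Those called were Vcam1, Ptgds, Sult1e1, Nr5a1, Esr1 and Aldh1a1. Vcam1, an adhesion molecule of Leydig cells, had 179, 144 and 78 counts in the knockout libraries and 37, 25 and 3 in wild type and a log2 fold change of 2.54 ± 0.56 (SE; adjusted p = 5.50e-04), and the knockout libraries did not overlap the wild-type ones. Ptgds, a prostaglandin D synthase, was the most abundant of them, with 1401, 1057 and 624 counts in the knockout libraries and 221, 298 and 116 in wild type, or 26432, 26633 and 41031 CPM in knockouts and 4027, 11098 and 19506 CPM in wild type. Wild-type replicate 3 was nearest to the knockout libraries, and the log2 fold change was 1.80 ± 0.43 (SE; adjusted p = 0.00190). With filterByExpr Ptgds was at 0.83 on the log2 scale and lost its call (edgeR, adjusted p = 0.131). Sult1e1, which inactivates estrogen by sulfation, had 54, 45 and 8 counts in the knockout libraries and 4, 5 and 1 in wild type, with a log2 fold change of 3.02 ± 0.79 (SE; adjusted p = 0.00452). Nr5a1 itself had 30, 25 and 12 counts in the knockout libraries and 4, 3 and 0 in wild type and rose by 3.06 ± 0.87 (SE; adjusted p = 0.0106) on the log2 scale. Sult1e1 lost its call without knockout replicate 1 (adjusted p = 0.102), knockout replicate 2 (0.0906) or wild-type replicate 1 (0.118). Nr5a1 lost its call without knockout replicate 1 (adjusted p = 0.0868), knockout replicate 2 (0.0904) or wild-type replicate 1 (0.112). The list had 2 higher genes in the fits without knockout replicate 1, knockout replicate 2 or wild-type replicate 1. Its median was -0.02 with the Leydig scaling, which is built on this list and so brings it near 0. The median was above 0 in the other scalings.

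A part of the cholesterol supply genes was higher as well. In the cholesterol synthesis and uptake list 6 of 18 tested genes rose, among them Msmo1, Hmgcs1 and Hsd17b7, none fell, and all 18 fold changes were above 0, with a median of 2.33 (2.0 with the 2 genes that no wild-type library held put at their bound). In share, the list took 0.540, 0.494 and 0.539% of counts in the knockout libraries and 0.126, 0.130 and 0.168% in wild type, and the groups did not overlap. Msmo1, the sterol C4 methyl oxidase, had 61, 38 and 11 counts in the knockout libraries and 9, 5 and 2 in wild type, with a log2 fold change of 2.46 ± 0.74 (SE; adjusted p = 0.0161). Hmgcs1, the cytosolic HMG-CoA synthase (ENSMUSG00000093930, GRCm38 chromosome 13, 119690379 to 119708260, plus strand), had 25, 18 and 11 counts in the knockout libraries and 5, 2 and 0 in wild type and a log2 fold change of 2.83 ± 0.91 (SE; adjusted p = 0.0234). Both calls were near the threshold. Msmo1 lost its call without knockout replicate 1 (adjusted p = 0.158), knockout replicate 2 (0.116), wild-type replicate 1 (0.163) or wild-type replicate 2 (0.0887). Hmgcs1 lost its call without knockout replicate 1 (adjusted p = 0.120), knockout replicate 2 (0.106), wild-type replicate 1 (0.131) or wild-type replicate 2 (0.136). None of the list was called without knockout replicate 1, knockout replicate 2, wild-type replicate 1 or wild-type replicate 2.

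Sterol genes are textbook targets of SREBP factors, which act together with the CCAAT-binding factor NF-Y, so their promoters were read from RefSeq (GRCm38.p6) over the 250 bases before each start. CCAAT was searched on both strands and was present in 11 of 16 windows of the tested list members (68.8%), beside 33.8% of all 32851 windows and 42.4% of the 205 windows of genes called higher. The sterol regulatory element TCACCCCAC, added to the search after the Hmgcs1 promoter was seen, was in 1 of the 16 windows and in 0.496% of all windows. That window is shown because it holds both. Capitals mark CCAAT, here read as ATTGG on the printed strand at 237, 176 and 45 bases before the start, and TCACCCCAC at 137 bases before it.
Hmgcs1, chr13:119690101-119690350, plus strand: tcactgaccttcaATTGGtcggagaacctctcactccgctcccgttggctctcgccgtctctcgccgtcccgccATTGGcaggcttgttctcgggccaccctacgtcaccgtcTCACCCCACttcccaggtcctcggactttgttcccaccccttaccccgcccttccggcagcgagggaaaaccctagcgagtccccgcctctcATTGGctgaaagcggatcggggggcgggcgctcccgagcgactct

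Some genes of fatty acid desaturation and elongation and of NADPH supply, which feeds lipid and steroid synthesis, were also called higher. The fatty acid list had 5 of 10 tested genes higher (Scd2, Fads1, Me1, Acly and Elovl5) and none lower, with a median log2 fold change of 2.25. Scd2, a stearoyl-CoA desaturase, had 180, 118 and 72 counts in the knockout libraries and 24, 22 and 11 in wild type, with a log2 fold change of 2.29 ± 0.56 (SE; adjusted p = 0.00259). Fads1, the delta-5 desaturase, had 107, 81 and 19 counts in the knockout libraries and 16, 17 and 0 in wild type and a log2 fold change of 2.43 ± 0.63 (SE; adjusted p = 0.00452). In the NADPH list 2 of 7 tested genes rose (28.6%, beside 4.32% of all genes). Idh1, the cytosolic isocitrate dehydrogenase, had 50, 49 and 12 counts in the knockout libraries and 2, 3 and 0 in wild type, or 943, 1235 and 789 CPM in knockouts and 36.4, 112 and 0 CPM in wild type. The lowest knockout library was well above the highest wild-type library, and the log2 fold change was 4.12 ± 0.86 (SE; adjusted p = 2.63e-04). Me1, the malic enzyme that counts in both lists, had 121, 99 and 23 counts in the knockout libraries and 23, 13 and 5 in wild type, with a log2 fold change of 2.26 ± 0.61 (SE; adjusted p = 0.00628). Fads1 lost its call without knockout replicate 1 (adjusted p = 0.103), knockout replicate 2 (0.0904) or wild-type replicate 1 (0.0704). Me1 lost its call without knockout replicate 1 (adjusted p = 0.104), knockout replicate 2 (0.105) or wild-type replicate 1 (0.0616). The fatty acid list kept 1 higher gene without knockout replicate 1, knockout replicate 2 or wild-type replicate 1, and 3 without wild-type replicate 2 or 3 or with DESeq2. Acly, which makes cytosolic acetyl-CoA, lost its call in 11 of 15 alternatives. Acsl1, an acyl-CoA synthetase, was called lower in the fit of all 12 libraries and with the Leydig scaling. The NADPH list kept 1 higher gene without knockout replicate 1, knockout replicate 2 or wild-type replicate 1.

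Glutathione transferases led the antioxidant and glutathione list. Of 31 tested genes 9 rose (Gstm2, Mgst1, Gstm1, Prdx1, Gsta4, Gsta3, Txn1, Mt1 and Cat) and none fell. The higher genes were 29.0% of the list, beside 4.32% of all genes. The median log2 fold change was 1.89. The list took 3.97, 4.41 and 3.47% of counts in the knockout libraries and 1.06, 1.28 and 1.45% in wild type. Gstm2, a mu-class glutathione transferase (ENSMUSG00000040562, GRCm38 chromosome 3, 107981702 to 107986453, minus strand), had 649, 512 and 140 counts in the knockout libraries and 119, 66 and 22 in wild type, or 12245, 12901 and 9206 CPM in knockouts and 2168, 2458 and 3699 CPM in wild type. Its groups were far apart, its log2 fold change was 2.40 ± 0.48 (SE; adjusted p = 1.23e-04), and it was the higher gene with the smallest p among named genes. Gstm1, from the same gene cluster, had 775, 690 and 177 counts in the knockout libraries and 222, 145 and 32 in wild type, with a log2 fold change of 1.84 ± 0.46 (SE; adjusted p = 0.00294). The mu-class genes are near-identical in places, so their separate counts are uncertain. Mgst1, a membrane-bound glutathione transferase, had 28, 42 and 22 counts in the knockout libraries and 2, 1 and 1 in wild type and rose by 4.25 ± 0.90 (SE; adjusted p = 3.34e-04) on the log2 scale. Prdx1, a peroxiredoxin that removes hydrogen peroxide, had 33, 64 and 14 counts in the knockout libraries and 9, 4 and 0 in wild type and a log2 fold change of 3.02 ± 0.76 (SE; adjusted p = 0.00310). Gstm1 lost its call without knockout replicate 2 (adjusted p = 0.0750), with filterByExpr (0.0626) or with no filter (0.0963). Gstm1 was at 1.22 on the log2 scale without wild-type replicate 3. Prdx1 lost its call without knockout replicate 2 (adjusted p = 0.134). The 9 higher genes became 4 without knockout replicate 1 or wild-type replicate 1, 2 without knockout replicate 2 and 5 without wild-type replicate 2. Gstt2, a theta-class transferase, was called lower with TMM on all counts, library size, relative log expression and the Leydig scaling, in the fit of all 12 libraries and without wild-type replicate 3. With the Leydig scaling the list median was 0.01 and Gstm1 turned to -0.05. The superoxide dismutases Sod1 (log2 fold change 0.53, adjusted p = 0.643) and Sod2 (0.65, adjusted p = 0.721) did not pass the test.

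Several of these genes are known targets of the stress factor Nrf2, which binds the antioxidant response element TGACNNNGC. Over both strands of the same 250 bases it was found in 9 of 35 windows of tested list members (25.7%), beside 10.2% of all windows and 14.6% of the windows of genes called higher. The promoters of Prdx1 and Mgst1, both called, are shown with the match in capitals. It lies on the opposite strand, 133 bases before the RefSeq start used for Prdx1 and 56 bases before that used for Mgst1. GENCODE places the start of Mgst1 at 138140316, inside the window shown, so by that annotation the Mgst1 match lies within the gene. A match is a run of letters and was not tested as a binding site. On both strands 3 other motifs were searched. CAAGGTCA, the site of Nr5a1, was in 0 of 13 windows of tested steroidogenesis genes and 0 of 12 of the Leydig identity list, beside 1.33% of all windows. TGACGTCA, the cAMP response element, was in 0 of 23 round spermatid and 0 of 23 elongating spermatid windows, beside 1.55% of all. The heat shock element of Hsf1 was in 2 of 14 windows of the heat shock list (14.3%), beside 0.466% of all. No gene of that list was called higher in the main fit (6 libraries, at least 10 counts, TMM), while some alternatives called 1.
Prdx1, chr4:116685349-116685598, plus strand: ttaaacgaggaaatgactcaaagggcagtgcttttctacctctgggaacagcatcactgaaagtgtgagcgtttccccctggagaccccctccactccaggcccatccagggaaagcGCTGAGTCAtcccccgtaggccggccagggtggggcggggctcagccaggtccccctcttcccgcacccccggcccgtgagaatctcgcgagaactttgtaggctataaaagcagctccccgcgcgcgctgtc
Mgst1, chr6:138140277-138140526, plus strand: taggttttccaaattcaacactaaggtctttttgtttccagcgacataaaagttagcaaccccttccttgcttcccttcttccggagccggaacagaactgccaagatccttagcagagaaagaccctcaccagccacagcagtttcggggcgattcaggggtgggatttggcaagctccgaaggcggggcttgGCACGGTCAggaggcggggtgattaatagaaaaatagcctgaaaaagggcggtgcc

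Aldehyde and retinoid enzymes gave 4 higher genes among 13 tested (Aldh1a7, Aldh2, Adh5 and Aldh1a1) and none lower, with a median log2 fold change of 1.505 that turned to -0.07 with the Leydig scaling. Aldh1a7, a cytosolic aldehyde dehydrogenase close in sequence to Aldh1a1, had 40, 23 and 24 counts in the knockout libraries and 2, 2 and 0 in wild type, with no overlap and a log2 fold change of 4.22 ± 0.91 (SE; adjusted p = 4.05e-04). Aldh1a1, which makes retinoic acid from retinal, was far more abundant with 436, 326 and 166 counts in the knockout libraries and 133, 104 and 40 in wild type, and had a log2 fold change of 1.41 ± 0.47 (SE; adjusted p = 0.0303). Aldh2, the mitochondrial enzyme, had 138, 102 and 47 counts in the knockout libraries and 29, 15 and 8 in wild type and a log2 fold change of 2.18 ± 0.58 (SE; adjusted p = 0.00599). Aldh1a1 lost its call without knockout replicate 1 (adjusted p = 0.0872), knockout replicate 2 (0.119) or wild-type replicate 1 (0.201). Aldh2 lost its call without knockout replicate 1 (adjusted p = 0.0661) or knockout replicate 2 (0.0686). The list had 1 higher gene without knockout replicate 1 or 2 and 2 without wild-type replicate 1.

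Most tested genes of secreted acute-phase and complement-control proteins were called higher. Of 15 tested genes 9 were higher (Serping1, Lcn2, Serpina3n, Serpina3c, Apoe, C1ra, Lrg1, Serpina3g and Clu). None was lower and 6 did not pass the test, with a median log2 fold change of 2.02 over the list. Lcn2, a siderophore-binding lipocalin, had 1055, 699 and 253 counts in the knockout libraries and 204, 162 and 40 in wild type, or 19904, 17612 and 16636 CPM in knockouts and 3717, 6033 and 6726 CPM in wild type. It was among the most abundant transcripts of the knockout libraries, with no overlap and a log2 fold change of 2.02 ± 0.46 (SE; adjusted p = 7.88e-04). Serping1, the C1 inhibitor of complement, had 80, 56 and 23 counts in the knockout libraries and 3, 8 and 0 in wild type, or 1509, 1411 and 1512 CPM in knockouts and 54.7, 298 and 0 CPM in wild type. The knockout libraries were close to each other and did not overlap the wild-type ones, and its log2 fold change was 3.50 ± 0.74 (SE; adjusted p = 2.99e-04). Serpina3n, an antitrypsin-like protease inhibitor of inflammation, had 5, 4 and 9 counts in the knockout libraries and 0, 0 and 0 in wild type and was at least 5.38-fold higher (adjusted p = 0.0173). The Serpina3 genes are a family of close copies, so the split between them is uncertain. In the inflammation and interferon list 3 of 7 tested genes rose, Lcn2 again, B2m and Cxcl12. Cxcl12, a chemokine, had 28, 16 and 9 counts in the knockout libraries and 1, 2 and 0 in wild type and was 15.9-fold higher (5.14 to 79.3 by counting error; adjusted p = 0.00791). B2m, the light chain of MHC class I, had 132, 64 and 14 counts in the knockout libraries and 23, 12 and 1 in wild type and a log2 fold change of 2.34 ± 0.63 (SE; adjusted p = 0.00633). Serpina3n lost its call without knockout replicate 1 (adjusted p = 0.0569), wild-type replicate 1 (0.207) or wild-type replicate 2 (0.0827). Cxcl12 lost its call without knockout replicate 1 (adjusted p = 0.101), knockout replicate 2 (0.0658) or wild-type replicate 1 (0.161). B2m lost its call without knockout replicate 1 (adjusted p = 0.187) or knockout replicate 2 (0.0828). The 9 higher acute-phase genes became 2 without knockout replicate 1 or wild-type replicate 1, and 3 without knockout replicate 2 or wild-type replicate 2 or with DESeq2. Of the inflammation list 1 gene was higher without knockout replicate 1 or 2, and 2 without wild-type replicate 1.

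Other genes led the higher calls by p. Klk1b24, a tissue kallikrein of a family of close copies, had 38, 57 and 24 counts in the knockout libraries and 4, 2 and 1 in wild type and a log2 fold change of 3.88 ± 0.81 (SE; adjusted p = 2.69e-04). Spon1, the matrix protein F-spondin, had 83, 39 and 15 counts in the knockout libraries and 2, 6 and 0 in wild type and a log2 fold change of 3.67 ± 0.79 (SE; adjusted p = 4.05e-04). Bhmt, which remethylates homocysteine with betaine, had 124, 103 and 35 counts in the knockout libraries and 21, 11 and 3 in wild type and a log2 fold change of 2.71 ± 0.62 (SE; adjusted p = 9.26e-04). No overlap between the groups was a condition for naming these 3 genes. Spon1 lost its call without knockout replicate 1 (adjusted p = 0.0522).

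Among growth and G1 genes 2 of 12 tested rose (16.7%, beside 4.32% of all genes) and none fell. All 12 fold changes were above 0, with a median of 2.44. Both called genes encode receptors. Kit, the stem cell factor receptor, is also made by differentiating spermatogonia and mast cells (ENSMUSG00000005672, GRCm38 chromosome 5, 75574916 to 75656722, plus strand). It had 36, 30 and 15 counts in the knockout libraries and 1, 0 and 1 in wild type, or 679, 756 and 986 CPM in knockouts and 18.2, 0 and 168 CPM in wild type. It was 36.3-fold higher (9.74 to 305 by counting error; adjusted p = 2.63e-04), and it was called higher in every alternative fit run. The other mast and lymphoid genes gave too few counts to test, so Kit was the 1 tested member of that list of 18. Lifr, the receptor of leukaemia inhibitory factor, had 55, 18 and 16 counts in the knockout libraries and 6, 0 and 0 in wild type and a log2 fold change of 3.78 ± 0.87 (SE; adjusted p = 0.00105). Lifr lost its call without knockout replicate 1 (adjusted p = 0.0562). Without wild-type replicate 1 no wild-type library held a count of Lifr, which was at least 11-fold higher. Ccnd2, a D-type cyclin, had 4, 3 and 3 counts in the knockout libraries and 1, 0 and 0 in wild type and did not pass the test (adjusted p = 0.208).

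No cell cycle gene was called higher. Of 27 detected members 8 had enough counts to test, and of these 1 fell, none rose and 7 did not pass the test. Over all genes 4.32% were called higher and 9.73% lower, so these counts are near those rates. Lower calls were 3 with TMM on all counts, library size, relative log expression or the fit of all 12 libraries. They were 4 with the Leydig scaling and 0 with DESeq2, no filter or the replicate block. Ccnb2, a mitotic B-type cyclin that is also made in meiotic germ cells, had 0, 0 and 0 counts in the knockout libraries and 13, 2 and 1 in wild type and was at least 5.94-fold lower (adjusted p = 0.0287). Top2a, the topoisomerase of dividing cells, had 0, 4 and 0 counts in the knockout libraries and 9, 7 and 1 in wild type and Bub1, a spindle checkpoint kinase, had 0, 0 and 0 counts in the knockout libraries and 8, 2 and 0 in wild type, with adjusted p of 0.235 and 0.0860. The whole list took 0.0415, 0.0806 and 0.0197% of counts in the knockout libraries and 0.135, 0.168 and 0.151% in wild type, while germ cell lists were lower in the same knockout libraries, and their part in these counts was not tested. Ccnb2 lost its call without knockout replicate 1 (adjusted p = 0.120) or knockout replicate 2 (0.0750).

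Stress lists gave few calls, and they held few tested genes. Over all genes tested 4.32% were called higher and 9.73% lower, and at those rates lists this small can hold no call. Among 13 heat shock genes tested, none rose in the main fit and Hspa2 and Hsp90aa1 fell (15.4%). Library size scaling, filterByExpr (3 genes tested) and the fit of all 12 libraries each called 1 gene of this list higher. Hspa2, a chaperone of meiotic germ cells, had 5, 5 and 1 counts in the knockout libraries and 94, 23 and 2 in wild type, with a log2 fold change of -3.20 ± 0.77 (SE; adjusted p = 0.00190). Hsp90aa1, a form of Hsp90 abundant in germ cells, had 4, 2 and 1 counts in the knockout libraries and 41, 18 and 3 in wild type and a log2 fold change of -3.09 ± 0.88 (SE; adjusted p = 0.0104). Hspe1, the mitochondrial co-chaperonin, had 18, 12 and 10 counts in the knockout libraries and 4, 1 and 1 in wild type and missed the threshold (log2 fold change 2.55 ± 0.97 (SE; adjusted p = 0.0573)). None of 16 endoplasmic reticulum stress genes was called, in edgeR with TMM or in DESeq2 (2 had an unadjusted p under 0.05 in edgeR). Creld2, induced by this stress, was called lower with TMM on all counts, library size, relative log expression and the Leydig scaling, in the fit of all 12 libraries and without wild-type replicate 2 or 3. Asns, the asparagine synthetase, was called lower with the Leydig scaling and in the 12-library fit. Sel1l, of protein degradation at this membrane, was called higher in the 12-library fit and without knockout replicate 3 or wild-type replicate 3. These 3 genes, like Gstt2 and Acsl1 above, were chosen after their values were seen. Hspa5, the BiP chaperone, had 53, 43 and 9 counts in the knockout libraries and 37, 14 and 1 in wild type with a log2 fold change of 0.99 ± 0.65 (SE; adjusted p = 0.325). None of 6 tested genes in the list for p53, senescence and apoptosis was called in the main edgeR fit or in DESeq2 (1 had an unadjusted p under 0.05 in edgeR). The fit of all 12 libraries called 1 of them higher. Sesn1, a p53 target, had 6, 4 and 0 counts in the knockout libraries and 12, 5 and 0 in wild type with overlapping groups. Jund, of the AP-1 family, was the 1 immediate early gene with enough counts to test among 13 detected. It had 47, 18 and 5 counts in the knockout libraries and 3, 4 and 0 in wild type, and its log2 fold change was 2.92 ± 0.88 (SE; adjusted p = 0.0161). Hspa2 lost its call without wild-type replicate 1 (adjusted p = 0.0630). Hsp90aa1 lost its call without knockout replicate 1 (adjusted p = 0.0562). Jund lost its call without knockout replicate 1 (adjusted p = 0.275), knockout replicate 2 (0.0904) or wild-type replicate 1 (0.229).

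Germ cell transcripts led the lower genes. Among spermatocyte genes 12 of 17 tested fell, among round spermatid genes 15 of 19 and among elongating spermatid genes 16 of 18, and no member of these 3 lists rose. Median log2 fold changes were -4.11, -5.26 and -5.68, or -2.93, -2.83 and -3.70 with the genes that no knockout library held put at their bound of 3 counts. Prm1 and Prm2, the protamines, were the most abundant of them. Prm1 had 0, 1 and 0 counts in the knockout libraries and 495, 147 and 19 in wild type, or 0, 25.2 and 0 CPM in knockouts and 9019, 5474 and 3195 CPM in wild type, and was 737-fold lower (132 to 29137 by counting error; adjusted p = 1.96e-20). Prm2 had 4, 0 and 0 counts in the knockout libraries and 427, 113 and 22 in wild type, with 4 counts in knockout replicate 1, and a log2 fold change of -6.87 ± 0.75 (SE; adjusted p = 9.92e-17). Tnp1, a transition protein, had 0, 0 and 0 counts in the knockout libraries and 219, 60 and 19 in wild type and was at least 111-fold lower (adjusted p = 3.41e-15). Tnp2 had 0, 0 and 0 counts in the knockout libraries and 91, 25 and 1 in wild type and was at least 43.5-fold lower (adjusted p = 1.10e-07).

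Other spermatid genes and genes that start in spermatocytes were lower too. Meig1, needed for the spermatid manchette, had 1, 0 and 0 counts in the knockout libraries and 173, 93 and 18 in wild type and was 316-fold lower (56.3 to 12544 by counting error; adjusted p = 3.30e-14). Crisp2 of the acrosome had 0, 0 and 0 counts in the knockout libraries and 149, 54 and 16 in wild type and was at least 81.3-fold lower (adjusted p = 4.11e-13). Dkkl1, an acrosomal protein, had 1, 0 and 0 counts in the knockout libraries and 54, 44 and 5 in wild type and was 115-fold lower (20.1 to 4577 by counting error; adjusted p = 5.41e-07). Spesp1, of the sperm equatorial segment, had 0, 0 and 0 counts in the knockout libraries and 58, 10 and 12 in wild type and was at least 29.7-fold lower (adjusted p = 6.81e-07). Ldhc, the lactate dehydrogenase that starts in spermatocytes, had 0, 0 and 0 counts in the knockout libraries and 123, 60 and 13 in wild type and was at least 72.8-fold lower (adjusted p = 1.96e-12). Ybx2, which stores germ cell mRNA, had 2, 0 and 0 counts in the knockout libraries and 84, 29 and 2 in wild type and was 64.1-fold lower (17.3 to 535 by counting error; adjusted p = 4.60e-06). Tdrd6, of the chromatoid body, had 0, 0 and 0 counts in the knockout libraries and 40, 18 and 2 in wild type and was at least 22.3-fold lower (adjusted p = 4.10e-05). Fabp9, a testis fatty acid binding protein, and Marchf11, a ubiquitin ligase of spermatids, were at least 28.6-fold lower (adjusted p = 2.48e-06) and 143-fold lower (25.1 to 5677 by counting error; adjusted p = 1.83e-07). All 13 genes of these paragraphs were called lower in every alternative that tested them.

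Spermatogonial genes were too few to follow as a group, with 6 tested, of which Kit rose and 2 fell. Dmrtb1 had 0, 0 and 0 counts in the knockout libraries and 11, 6 and 0 in wild type and was at least 6.31-fold lower (adjusted p = 0.0220). Ddx4, an RNA helicase of all germ cells, had 3, 0 and 0 counts in the knockout libraries and 16, 16 and 0 in wild type and was 11.9-fold lower (3.72 to 60.7 by counting error; adjusted p = 0.0302). Wild-type replicate 3 had no count of either gene, so the groups overlapped. Dmrtb1 lost its call without knockout replicate 1 (adjusted p = 0.120), knockout replicate 2 (0.0671) or wild-type replicate 2 (0.0542). Ddx4 lost its call without knockout replicate 2 (adjusted p = 0.0884), knockout replicate 3 (0.0561), wild-type replicate 1 (0.0555) or wild-type replicate 2 (0.159). Without knockout replicate 1 no knockout library held a count of Ddx4, which was at least 6.62-fold lower. The list took 0.126, 0.116 and 0.138% of counts in the knockout libraries and 0.0820, 0.130 and 0.0336% in wild type, and the groups overlapped. Kit held 36, 30 and 15 of its counts in the knockout libraries and 1, 0 and 1 in wild type. Without Kit the list took 0.0585, 0.0403 and 0.0395% of counts in the knockout libraries and 0.0802, 0.130 and 0.0168% in wild type.

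**Figure D3:**
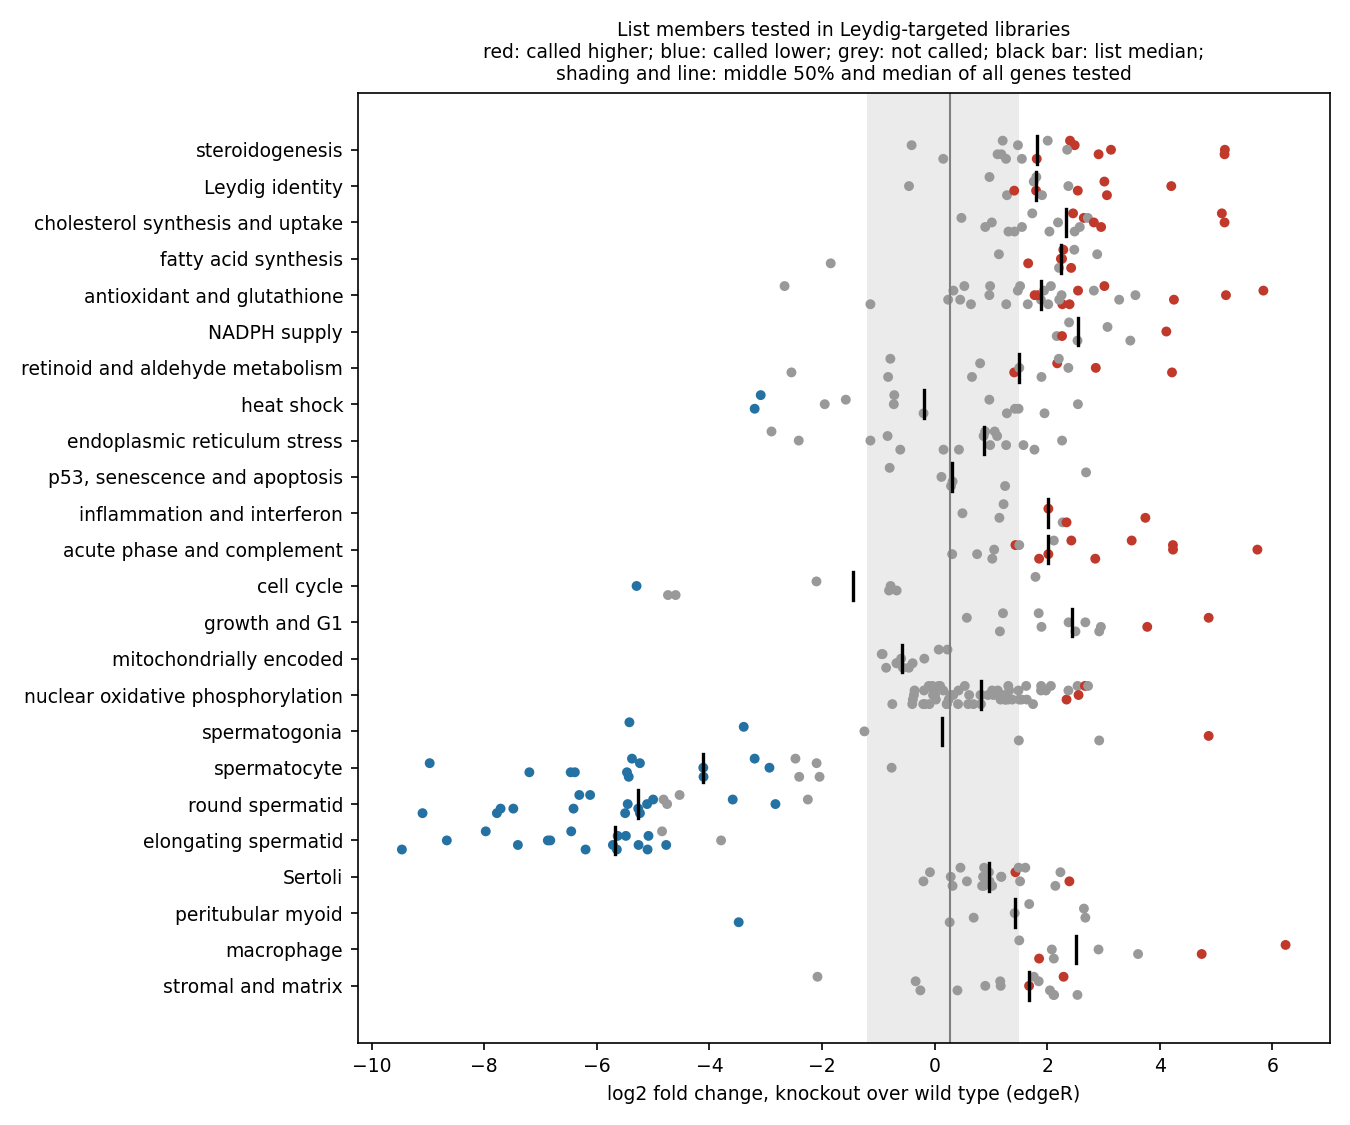
Log2 fold change, knockout over wild type, of every tested member of the 24 lists with at least 5 tested genes. Each point is a gene, red where called higher, blue where called lower and grey where not called, black bars are list medians, and the shaded band and line are the interquartile range and the median (0.28) of all 4555 genes tested. The medians of the spermatocyte and spermatid lists lie to the left of 0, while those of the steroid, lipid, antioxidant and acute-phase lists lie to the right of the median of all genes.

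Markers of other interstitial and tubular cells were measured in the same libraries. Sertoli genes, whose cells lie inside the tubules, took 1.57, 1.28 and 0.999% of counts in the knockout libraries and 0.676, 0.752 and 0.404% in wild type, with no overlap. Of 22 tested 2 rose, or 9.09% beside 4.32% of all genes. They were Defb19, a secreted defensin (89, 66 and 17 against 23, 7 and 1 counts, log2 fold change 2.39 ± 0.65 (SE; adjusted p = 0.00714)), and Clu, a secreted chaperone also counted with the acute-phase list (345, 199 and 65 against 138, 71 and 7 counts, log2 fold change 1.44 ± 0.50 (SE; adjusted p = 0.0356)). The median log2 fold change was 0.97, and 20 of the 22 were above 0. Sox9 and Wt1, regulators that define Sertoli cells, did not pass the test (log2 fold change 0.84 and -0.20, adjusted p = 0.657 and 0.931), and Wt1 was the lowest of the 22. Defb19 lost its call without knockout replicate 1 (adjusted p = 0.120), knockout replicate 2 (0.0969) or wild-type replicate 2 (0.0630). Clu lost its call without knockout replicate 1 (adjusted p = 0.281), knockout replicate 2 (0.224), wild-type replicate 1 (0.0988), wild-type replicate 2 (0.0744) or wild-type replicate 3 (0.255). With the Leydig scaling the Sertoli median went from 0.97 to -0.79, and Clu to -0.45.

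Macrophage genes took 0.538, 0.406 and 0.302% of counts in the knockout libraries and 0.0692, 0.156 and 0.151% in wild type, again with no overlap. Of 8 tested 3 rose, or 37.5% beside 4.32% of all genes. H2-Aa and Cd74, of MHC class II presentation, came mostly from 1 library. H2-Aa had 34, 2 and 0 counts in the knockout libraries and 0, 0 and 0 in wild type, and the groups overlapped, while it was at least 10.8-fold higher (adjusted p = 0.00536). Cd74 had 39, 3 and 3 counts in the knockout libraries and 1, 0 and 0 in wild type and was 40.4-fold higher (6.89 to 1630.0 by counting error; adjusted p = 0.00582). Apoe, made by macrophages and steroidogenic cells alike, had 111, 122 and 24 counts in the knockout libraries and 11, 31 and 7 in wild type with a log2 fold change of 1.86 ± 0.58 (SE; adjusted p = 0.0214). H2-Aa lost its call without wild-type replicate 1 (adjusted p = 0.146) or wild-type replicate 2 (0.0561). Cd74 lost its call without wild-type replicate 1 (adjusted p = 0.0605) or wild-type replicate 2 (0.0808). Apoe lost its call without knockout replicate 1 (adjusted p = 0.120), knockout replicate 2 (0.328) or wild-type replicate 1 (0.345). H2-Aa also lost its call with DESeq2 (adjusted p = 0.135) and in the fit of all 12 libraries (0.106). None of this list was called with DESeq2, or without knockout replicate 1 or wild-type replicate 1.

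Stromal and matrix genes took 0.974, 0.897 and 0.960% of counts in the knockout libraries and 0.353, 0.432 and 0.235% in wild type. Of 15 tested 2 rose, or 13.3% beside 4.32% of all genes. Sparc, a matrix glycoprotein, had 303, 190 and 98 counts in the knockout libraries and 87, 71 and 9 in wild type and a log2 fold change of 1.68 ± 0.50 (SE; adjusted p = 0.0161), which the Leydig scaling turned to -0.09. Sparcl1, its relative, had 37, 24 and 6 counts in the knockout libraries and 11, 2 and 0 in wild type and a log2 fold change of 2.29 ± 0.81 (SE; adjusted p = 0.0389). Peritubular myoid genes took 0.166, 0.149 and 0.178% of counts in the knockout libraries and 0.128, 0.115 and 0.135% in wild type, and of 7 tested genes Myh11, the smooth muscle myosin, fell. The other 6 were above 0 and did not pass the test, and the list median was 1.42. It had 1, 0 and 1 counts in the knockout libraries and 7, 11 and 3 in wild type, and was 11.7-fold lower (2.86 to 103 by counting error; adjusted p = 0.0414). Endothelial genes gave no tested member, with 13 of 18 detected, and the haemoglobin gene Hbb-bs gave at most 6 counts in a library. Sparc lost its call without knockout replicate 1 (adjusted p = 0.102), knockout replicate 2 (0.0857) or wild-type replicate 1 (0.0874). Sparc was at 1.004 on the log2 scale without wild-type replicate 3. Sparcl1 lost its call without knockout replicate 1 (adjusted p = 0.276), knockout replicate 2 (0.263), wild-type replicate 1 (0.0899), wild-type replicate 2 (0.306) or wild-type replicate 3 (0.122). Myh11 lost its call without knockout replicate 1 (adjusted p = 0.125), knockout replicate 2 (0.120) or wild-type replicate 2 (0.212). The part that these cell types play in the Leydig-targeted differences was not tested.

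Oxidative phosphorylation genes encoded in the nucleus had 3 of 60 tested members higher (Atp5g3, Ndufc2 and Cox7b) and none lower. That is 5.0% of the list, near the 4.32% called higher among all genes. The list median was 0.82 and turned to -1.07 with the Leydig scaling. DESeq2 called none of the 60, Cox7b lost its call in 12 of 15 alternatives and Ndufc2 in 10 of 14. Atp5g3, of the ATP synthase ring, had 53, 52 and 10 counts in the knockout libraries and 17, 5 and 0 in wild type, with a log2 fold change of 2.34 ± 0.71 (SE; adjusted p = 0.0166). None of 12 tested mitochondrially encoded genes was called by edgeR with TMM on the genes kept (1 had an unadjusted p under 0.05), while DESeq2 and relative log expression each called 4 lower, TMM on all counts and library size 3 each, filterByExpr 8 of 10 and the Leydig scaling 10. mt-Nd2, mt-Nd4 and mt-Cytb were in all of these. mt-Nd4, a subunit of complex I, had 448, 281 and 72 counts in the knockout libraries and 611, 336 and 180 in wild type and a log2 fold change of -0.92 ± 0.44 (SE; adjusted p = 0.149). The list took 2.81, 2.40 and 2.08% of counts in the knockout libraries and 3.22, 4.13 and 8.74% in wild type, so its wild-type mean leaned on replicate 3, and without that library 5 members were lower. Without knockout replicate 1 or 2 or wild-type replicate 1 or 2, mt-Nd4 was the 1 member called lower. Atp5g3 lost its call without knockout replicate 1 (adjusted p = 0.120), knockout replicate 2 (0.238) or wild-type replicate 2 (0.126). Atp5g3 was at 1.51 on the log2 scale without wild-type replicate 3.

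The comparison was then set beside entire sections of the same genotypes, which share no library with it. On the same 4555 genes, in a fit of all 12 libraries, sections had 1756 genes higher (38.6%) and 1041 lower (22.9%) in knockouts. Of the 197 genes higher in Leydig-targeted libraries 177 were also higher in sections (89.8% of them and 10.1% of the 1756), and of the 443 lower genes 417 were also lower (94.1% of them and 40.1% of the 1041). None was higher in the targeted libraries and lower in sections, and 4 were the reverse, the gene models Gm29216, Gm13341 and Gm10721 and the myosin gene Myh11. The genotype by region interaction was called for 23 genes (0.505% of those tested), 3 with a higher and 20 with a lower knockout effect in the targeted libraries, and 581 had an unadjusted p under 0.05. For the steroid genes no interaction passed the test in edgeR, with -1.30 ± 0.65 (SE; adjusted p = 0.381) for Hsd3b1. Cyp11a1 came closest. It was 3.68 higher on the log2 scale in knockout sections and 0.41 lower in targeted libraries, an interaction of -3.73 ± 1.06 (SE; adjusted p = 0.0553). Hsd17b3 and Star had interactions of -1.94 ± 0.88 (SE; adjusted p = 0.310) and -1.76 ± 0.70 (SE; adjusted p = 0.222).

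**Figure D4:**
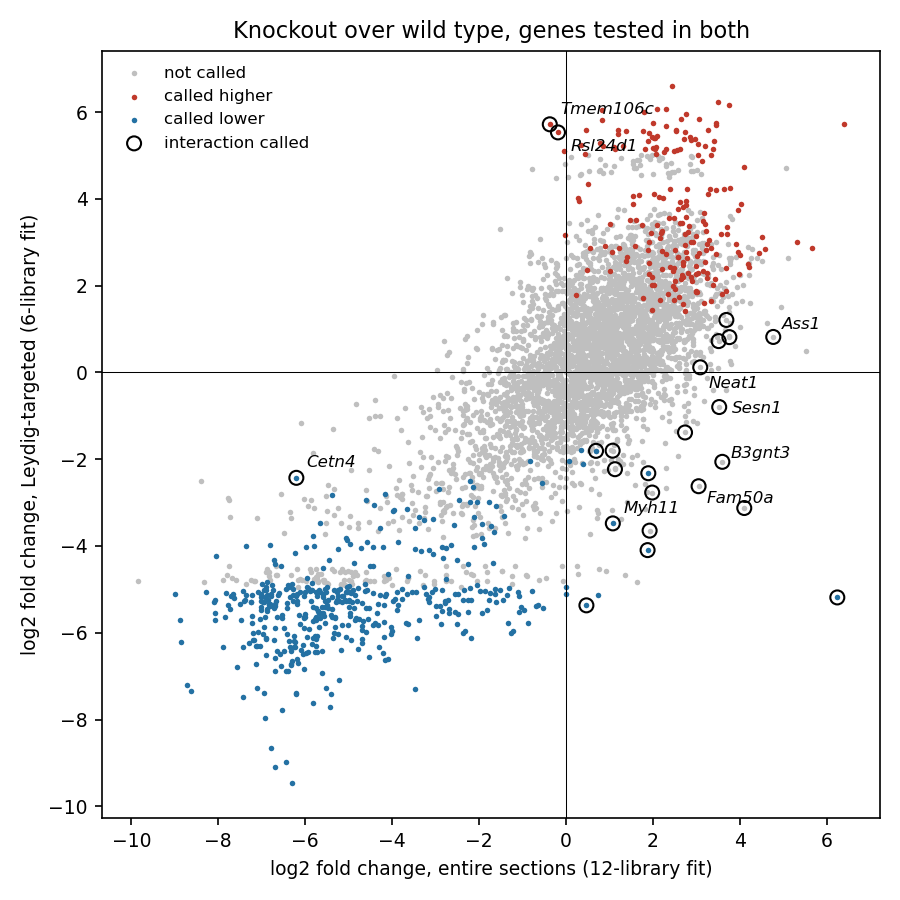
Log2 fold change of knockout over wild type in entire sections (horizontal axis, 12-library fit) and in Leydig-targeted libraries (vertical axis, 6-library fit) for the 4555 genes tested. Red and blue points were called higher and lower in the targeted libraries, and black rings mark the 23 genes whose interaction was called. Called genes lie mostly in the upper right and lower left, and most ringed genes lie to the right of 0 and at or below 0 on the vertical axis.

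Myh11, which went against the other tested peritubular myoid genes, was among the interaction calls. It had 2 counts in the 3 knockout targeted libraries against 21 in wild type, and 93, 87 and 106 counts in knockout sections and 112, 40 and 33 in wild-type sections, with an interaction of -4.68 ± 1.10 (SE; adjusted p = 0.00985). Neat1, a nuclear long noncoding RNA, had 229, 153 and 113 counts in the knockout libraries and 140, 142 and 62 in wild type, or 4321, 3855 and 7430.3 CPM in knockouts and 2551, 5288 and 10425 CPM in wild type. The groups overlapped, with a log2 fold change of 0.12 ± 0.48 (SE; adjusted p = 0.907), whereas sections gave 858, 650 and 841 counts in knockout sections and 214, 60 and 86 in wild-type sections and an interaction of -2.97 ± 0.66 (SE; adjusted p = 0.00594). Ass1, of arginine synthesis, had 9, 15 and 7 counts in the knockout libraries and 5, 9 and 1 in wild type with a log2 fold change of 0.82 ± 0.87 (SE; adjusted p = 0.591), and 144, 147 and 132 counts in knockout sections and 8, 6 and 5 in wild-type sections, for an interaction of -3.92 ± 0.89 (SE; adjusted p = 0.00800). Neat1 lost its call without knockout replicate 2 (adjusted p = 0.128) or knockout section replicate 3 (0.0516). Ass1 lost its call without wild-type replicate 2 (adjusted p = 0.184). The interaction calls numbered between 11 and 51 when 1 of the 12 libraries was left out.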

How the data were processed

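The deposited table holds counts per gene as whole numbers that the authors had not normalized. The tools featureCounts, HISAT2, Trim Galore and UMI-tools and the GRCm38 build are named per the submitters' processing notes, without versions or order. No source used here gives the strandedness of the counting; overlapping and antisense genes cannot be separated. Positions are from the GENCODE annotation of that build. The Leydig-targeted libraries held 5947 to 54882 counts.

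Genes with at least 10 counts over the 6 libraries were tested with edgeR 4.0.16 (robust quasi-likelihood, TMM, R 4.3.3), with genotype as the 1 term and Benjamini-Hochberg adjustment, and calls were made at an adjusted p under 0.05. The interaction used all 12 libraries, and the scripts were checked on simulated counts. The members, gene lists (28 lists with 729 symbols, 25 genes in more than 1) and tests were chosen with earlier results of these data known. CPM is relative to all counts of a library. Each SE of an edgeR fold was derived as the absolute log2 fold change over the square root of the quasi-likelihood F statistic. It is not a separately fitted standard error. For a group without counts, a floor of 3 counts summed over its libraries gives the bound of a fold. Where the lower group has 1 to 3 counts, a ratio of pooled counts is given with an exact 95% interval. Both divide counts by library sizes scaled with the TMM factors, so they move with the scaling. They cover counting error only.

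Named genes were the 12 higher and 12 lower with the smallest adjusted p among called genes with no overlap between the groups, without predicted, unnamed, mitochondrial and ribosomal protein genes. No overlap in these genes is thus a condition of their choice and not a result. Added to these were up to 4 tested members of each list by p, 6 steroid genes, the targeted gene and up to 5 interaction genes in each direction; most uncalled list members are summarised. Sod1, Sod2, Sox9 and Wt1 lie outside the rule and were chosen after their values were seen. Alternatives were other scalings, filters, DESeq2 1.42.0, a fit of all 12 libraries, a replicate block and each library left out. TMM on totals of all genes was added after seeing the data. Promoters are RefSeq windows; 3518 of 4555 tested genes had one. A few genes that the rule would name are not reported here.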

Additional observations from a re-analysis of the deposited data

Results flagged for a closer look

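For 8 named genes the knockout effect differed between Leydig-targeted libraries and entire sections by the interaction test of edgeR (12 libraries, Benjamini-Hochberg adjustment). Values are the targeted effect minus the section effect, on the log2 scale. Higher in the targeted libraries were Tmem106c, 8.32 ± 2.07 (SE; adjusted p = 0.0233), with 6, 10 and 4 against 0, 0 and 0 counts, Rsl24d1, 8.09 ± 2.09 (SE; adjusted p = 0.0322), with 17, 4 and 0 against 0, 0 and 0 counts, and Cetn4, a centrin, 3.72 ± 0.94 (SE; adjusted p = 0.0272), which was lower in the knockouts of both kinds of library. No wild-type targeted library held a count of Tmem106c or Rsl24d1, so their fitted values depend on the prior count and are no bounds. In the targeted libraries Tmem106c was at least 5.98-fold higher (adjusted p = 0.0173) and Rsl24d1 at least 6.28-fold higher (adjusted p = 0.0232). DESeq2 put the Rsl24d1 interaction at 5.24. Lower were B3gnt3, a glycosyltransferase, -5.66 ± 1.01 (SE; adjusted p = 5.90e-05), with 1, 6 and 0 against 15, 7 and 4 counts, Sesn1, -4.41 ± 0.91 (SE; adjusted p = 0.00164), Fam50a, -5.74 ± 1.28 (SE; adjusted p = 0.00594), with 1, 1 and 0 against 1, 10 and 0 counts, Neat1, -2.97 ± 0.66 (SE; adjusted p = 0.00594), and Ass1, -3.92 ± 0.89 (SE; adjusted p = 0.00800). In sections Sesn1 had 64, 98 and 59 counts in knockout sections and 14, 11 and 0 in wild-type sections, and Fam50a had 10 of its 11 wild-type targeted counts in 1 library. Tmem106c lost its call without knockout section replicate 2 (adjusted p = 0.0628) or wild-type section replicate 3 (0.0810). Rsl24d1 lost its call without knockout section replicate 1 (adjusted p = 0.0675), knockout section replicate 2 (0.0552), knockout section replicate 3 (0.0510), wild-type replicate 1 (0.0611), wild-type replicate 2 (0.0516), wild-type replicate 3 (0.0543) or wild-type section replicate 3 (0.0810). Cetn4 lost its call without knockout replicate 1 (adjusted p = 0.0793), knockout replicate 2 (0.0853), knockout section replicate 1 (0.0992), knockout section replicate 2 (0.0755) or wild-type section replicate 2 (0.0589). Sesn1 lost its call without wild-type replicate 1 (adjusted p = 0.156). Neat1 lost its call without knockout replicate 2 (adjusted p = 0.128) or knockout section replicate 3 (0.0516). Ass1 lost its call without wild-type replicate 2 (adjusted p = 0.184). With the Leydig scaling Sesn1 (adjusted p = 0.0719), Fam50a (0.0719), Neat1 (0.256) and Ass1 (0.107) lost their calls. With no filter Sesn1 (adjusted p = 0.0969), Fam50a (0.0963), Neat1 (0.557), Ass1 (0.263), Cetn4 (0.0604) and Rsl24d1 (0.0516) lost theirs.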

How the results depend on the processing

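Of 69 named genes called, 65 kept their direction in every alternative run and 14 were also called in every one. Leaving out 1 library at a time kept 26. Of the 49 named higher genes 13 were still called with no filter, and 31 of the 41 tested with filterByExpr. The 640 calls of edgeR (197 higher, 443 lower) became 306 (66, 240) with DESeq2, 161 (66, 95) of 418 genes with filterByExpr, 116 (15, 101) of 15938 genes with no filter, 1374 (605, 769) with all 12 libraries in the fit and 1198 (2, 1196) with the Leydig scaling; TMM on all counts gave 123 higher. Without 1 library they ran from 119 to 828 (27 to 250 higher, 92 to 687 lower). The cause of these shifts was not tested, but fits without a library have fewer samples and genes. With a replicate block there were 402 calls (161, 241). Same-numbered knockout and wild-type libraries deviated with correlations of -0.0215, 0.0252 and -0.0316 across genes, so the numbers were not taken to pair the samples. The 23 interaction calls (3 higher, 20 lower) became 68 (46 higher) with DESeq2, 54 (6, 48) with filterByExpr, 57 (8, 49) with library size, 7 (5 lower) with no filter, 9 higher and 13 lower with relative log expression and 18 and 3 with the Leydig scaling, 17 with the replicate block, and 11 to 51 (0 to 20, 7 to 47) without 1 library. Shares moved by less than 1 SD under other denominators, and without 1 library ran from 8.93% to 9.89% and 2.92% to 3.93% for steroidogenesis and Leydig identity and from 0.0626% to 0.0799% and 3.46% to 4.67% for spermatocytes and spermatids, in knockout and wild type.

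Signs turned with the Leydig scaling in Gstm1 (-0.046), Aldh1a1 (-0.43), Clu (-0.45) and Sparc (-0.095), which were called, and in Hspa5 (-0.96), Glb1 (-0.53), Amhr2 (-0.29), Mylk (-0.56), Igfbp7 (-0.035), Star (-0.56), Ass1 (-0.84), Gadd45g (-1.80) and Neat1 (-1.68), which were not. Others, none of them called, turned elsewhere. Gadd45g gave -0.57 with DESeq2, -0.12 with TMM on all counts, -0.22 with library size and -0.13 with relative log expression, and -0.64 to 1.77 without 1 library. Neat1 gave -0.18, -0.29, -0.29 and -0.18 in the same 4, -0.83 with filterByExpr, and -0.34 to 0.12 without 1 library. Ass1 gave -0.016 with filterByExpr. Without 1 library Hbb-bs ran from -1.03 to 0.15 and Cyp11a1 from -1.42 to 0.15.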

Other observations

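Some genes outside the lists were higher in all 3 knockout libraries and were chosen after their values were seen. Pgrmc1, a haem-binding partner of cytochromes P450, had 51, 45 and 25 counts in the knockout libraries and 8, 4 and 0 in wild type and a log2 fold change of 3.26 ± 0.76 (SE; adjusted p = 0.00122) in edgeR. Acsbg1, an acyl-CoA synthetase, had 209, 159 and 80 counts in the knockout libraries and 50, 30 and 6 in wild type and a log2 fold change of 2.26 ± 0.54 (SE; adjusted p = 0.00190). Atrx, an X-linked chromatin remodeller, had 29, 5 and 7 counts in the knockout libraries and 0, 0 and 0 in wild type and was at least 12.3-fold higher (adjusted p = 0.00166).

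The gene model Gm29216, an unprocessed pseudogene (ENSMUSG00000101249, GRCm38 chromosome 1, 24615706 to 24616197, minus strand), went opposite ways in the 2 kinds of library. It had 12, 9 and 1 counts in the knockout libraries and 362, 207 and 88 in wild type, and 1070, 1950 and 742 counts in knockout sections and 17, 25 and 15 in wild-type sections. The log2 fold change was -5.19 ± 0.60 (SE; adjusted p = 1.20e-14) in the targeted libraries, and the interaction was -11.43 ± 0.82 (SE; adjusted p = 1.90e-32). Gm13341, another unprocessed pseudogene, had 53, 56 and 11 counts in the knockout libraries and 315, 184 and 42 in wild type, and 244, 219 and 131 counts in knockout sections and 116, 66 and 28 in wild-type sections, with an interaction of -4.22 ± 0.67 (SE; adjusted p = 1.86e-06). All 6 libraries of a kind separate by genotype for both models, and each group was 1 library pool.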
